A study of Mus musculus with 6 samples.

Results

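The genes described here make prostaglandins and thromboxane or receive prostaglandin E2: the cyclooxygenases Ptgs1 and Ptgs2, the terminal synthases Ptges, Ptgds, Hpgds, Ptgis and Tbxas1, and the receptors Ptger2, Ptger3 and Ptger4. They were taken by gene symbol from the platform annotation, and the probe set that stands for a gene was chosen by its mean log2 level over all arrays, the highest being taken. The genes themselves were chosen with earlier results of the same comparison known, so their genotype differences are a description and support nothing further. Of the 10 genes, 9 had at least 1 such probe set, 15 probe sets in all, among 18193 genes measured. The annotation used listed no probe set for Ptgs1, which was not analysed here. RNA came from white adipose tissue of 3 wild-type mice and 3 mice homozygous for a Ksr2 knockout (KSR2-/-), all C57Bl6 females of 6 months, with 1 mouse on each Affymetrix array. KSR2 holds kinases of the Raf, MEK and ERK cascade together as a scaffold. The labels name neither the fat depot nor the deleted part of Ksr2.

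Prostanoids are short-lived lipid messengers made from arachidonic acid, which phospholipases free from membranes. Cyclooxygenases convert it to prostaglandin H2, and a terminal synthase then fixes which product is made: E2, D2, prostacyclin or thromboxane. In white fat, prostaglandin E2 is known to restrain lipolysis through the EP3 receptor of adipocytes, which lowers cyclic AMP, whereas EP2 and EP4 raise cyclic AMP and are prominent on immune and stromal cells. Macrophages, mast cells and vessel walls in the tissue are further sources of prostanoids.

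Values are log2 of the deposited RMA intensity, so a difference of 1 is a doubling. Wild types and knockouts are numbered 1 to 3. By the animal numbers in their titles, replicates 1 and 2 of each genotype form a high-number series and replicate 3 of each a low-number pair. RNA integrity was read from the Gapdh controls as the 3' minus 5' log2 difference, which reached 4.18 in wild type 3 and stayed between 0.07 and 1.46 elsewhere. Knockout 3, at 0.81, lay within that range. In epithelial and mammary markers both arrays of the low-number pair stood apart. The mean of 6 epithelial and mammary markers was 7.09 in wild type 3 and 5.83 in knockout 3, against 4.37 to 4.81 elsewhere. Adipoq, the adiponectin gene that defines adipocytes, read 13.46 to 13.58 in wild type and 12.70, 12.95 and 13.40 across knockouts 1 to 3. It was thus high on all arrays but lower in knockout (−0.51, SE 0.21, limma adjusted p = 0.400). Its groups did not overlap, as in 16.3% of all genes. Of 7 adipocyte markers measured, 5 were lower in knockout and 2 higher. Lep, the leptin gene, was higher without overlap (1.45, SE 0.57, limma adjusted p = 0.380). Ksr2 read low in both genotypes (4.42 and 4.34), and since the deleted part is unnamed it does not check the labels.

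Ptgs2 and Ptges measured lower in knockout fat (−2.21 and −1.75 log2), and Hpgds, Tbxas1, Ptger2 and Ptger4 measured higher by 1.07 to 1.95. The difference was −0.70 for Ptger3, −0.15 for Ptgds and 0.10 for Ptgis. None of these differences passed limma at an adjusted p under 0.05 over all genes, where 0.00550% of genes passed. Under an unadjusted limma p of 0.05 lay 5 of the 9 members, 3 higher and 2 lower, against 12.1% of all genes (6.71% higher and 5.38% lower). The members were chosen with results of this comparison known, so nothing is read from that share. The genotype groups did not overlap in 1 member of 9, Ptgds, which was lower, against 16.3% of all genes (7.72% higher and 8.56% lower). The median difference was 0.10 among members and −0.04 over all genes. Without knockout 3 limma passed 4 members (4.49% of all genes passed), without wild type 3 it passed 1 (0.0495%), and in the high-number series alone it passed 5 (2.68%). The values of those members stand under each gene. The array left out there is the one without which that gene passed. It was thus picked from these same values, and the result supports nothing further. With limma, Ptgs2 had an adjusted p of 0.415 without knockout 3. Without wild type 3, it was 0.392 for Ptges, 0.436 for Hpgds, 0.473 for Tbxas1 and 0.609 for Ptger4.

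**Figure D1:**
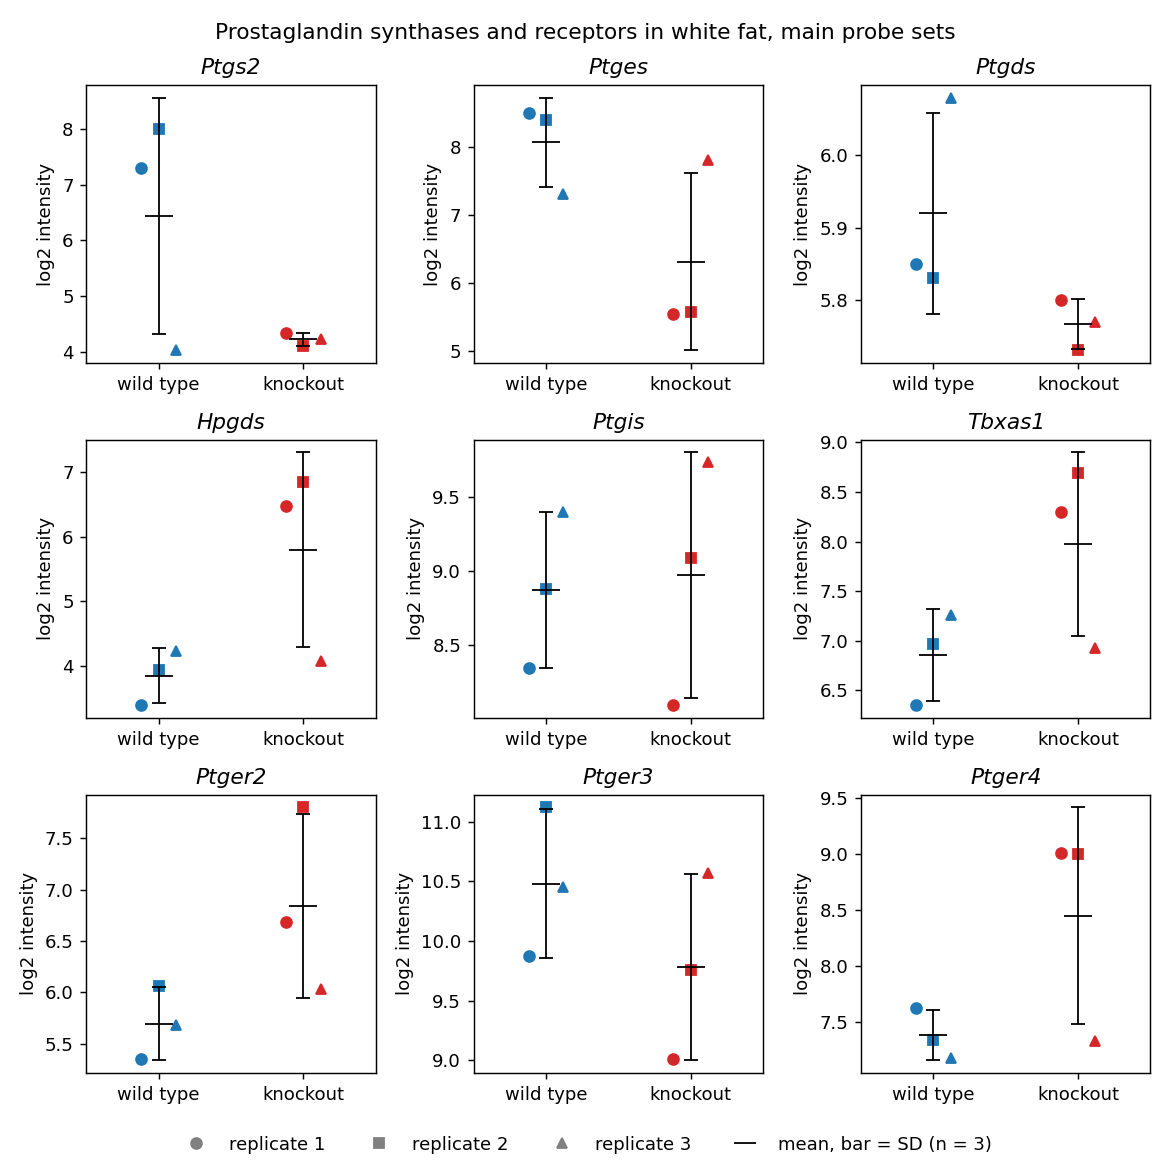
Log2 intensity (vertical axes, each with its own range) of the main probe set of the 9 measured members in wild-type and knockout fat. Points are single mice, marked by replicate, with the mean and SD (n = 3). Knockout 3 (triangle) lies within 0.33 of the wild-type mean for Ptges, Hpgds, Tbxas1, Ptger2, Ptger3 and Ptger4, and wild type 3 lies at the knockout level for Ptgs2.

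The 4 synthase genes with the largest differences are shown by their promoters, because these genes carry both directions of the pattern. Of the 10 genes, 9 were found in the RefSeq promoter table of GRCm38.p6. These 9 include Ptgs1, which has no array values, and lack Ptgis. Each window runs from 250 bases before to 30 bases after the annotated start site, 5′ to 3′ on the gene's strand. Capitals mark matches on either strand to TATAAA (the TATA box), GAGGAA (a core bound by the myeloid factor PU.1), CGTCA (a cyclic AMP response half-site), CACGTG (an E-box) or TTNNGNAA (a C/EBP-type motif). The windows are Ptgs2 at chr1:150099781-150100060 (plus strand), Ptges at chr2:30903268-30903547 (minus), Hpgds at chr6:65144701-65144980 (minus) and Tbxas1 at chr6:38918736-38919015 (plus).
Ptgs2: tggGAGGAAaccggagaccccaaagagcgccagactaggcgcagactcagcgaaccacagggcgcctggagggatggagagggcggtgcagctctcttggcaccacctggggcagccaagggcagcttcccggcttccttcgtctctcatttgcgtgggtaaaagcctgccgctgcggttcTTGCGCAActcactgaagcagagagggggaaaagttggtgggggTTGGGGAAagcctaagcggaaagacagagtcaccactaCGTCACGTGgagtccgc
Ptges: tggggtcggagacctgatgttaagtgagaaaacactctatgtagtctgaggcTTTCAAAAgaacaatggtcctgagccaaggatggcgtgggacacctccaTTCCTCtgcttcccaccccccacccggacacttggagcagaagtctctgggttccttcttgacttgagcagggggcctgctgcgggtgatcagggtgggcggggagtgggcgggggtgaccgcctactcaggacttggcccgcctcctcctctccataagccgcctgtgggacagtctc
Hpgds: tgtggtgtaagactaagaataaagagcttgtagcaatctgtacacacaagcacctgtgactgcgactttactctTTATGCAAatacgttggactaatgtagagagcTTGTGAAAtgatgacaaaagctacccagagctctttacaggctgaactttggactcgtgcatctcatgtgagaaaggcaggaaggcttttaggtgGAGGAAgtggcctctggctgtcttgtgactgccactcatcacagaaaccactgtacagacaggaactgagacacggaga
Tbxas1: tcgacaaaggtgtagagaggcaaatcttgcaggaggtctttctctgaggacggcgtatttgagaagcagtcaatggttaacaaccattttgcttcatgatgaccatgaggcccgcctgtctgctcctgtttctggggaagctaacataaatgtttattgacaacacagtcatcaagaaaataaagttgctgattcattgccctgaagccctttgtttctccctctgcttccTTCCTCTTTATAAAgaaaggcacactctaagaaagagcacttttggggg
All 4 windows hold GAGGAA, as do 5 of the 9 member windows and 26.0% of all 32851 windows of this length. It begins 247 bases before the start site in Ptgs2, 149 in Ptges, 49 in Hpgds and 19 in Tbxas1. Of the members, CGTCA and CACGTG were found in Ptgs2 alone, where they overlap by 2 bases, and occur in 19.9% and 6.79% of all windows. TATAAA was found in Tbxas1 alone among the members and in 13.1% of all windows. In Tbxas1 it matches on both strands in overlapping positions. TTNNGNAA was found in 5 of the 9 member windows and in 39.3% of all windows. These matches describe letters and were not measured as binding sites.

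Ptgs2 encodes the inducible cyclooxygenase. It measured 7.29 and 8.00 in wild types 1 and 2 but 4.03 in wild type 3, and 4.34, 4.11 and 4.24 across knockouts 1 to 3. The wild-type group therefore split, and its lowest value lay below every knockout. The means were 6.44 ± 2.11 and 4.23 ± 0.11 (SD, n = 3 each), a 4.63-fold lower level in knockout (−2.21, SE 0.93, limma adjusted p = 0.410). The difference was −3.42 within the high-number series and 0.20 within the low-number pair. Wild type 3 also had the widest Gapdh difference (4.18), belonged to the low-number pair and had the highest mean of epithelial and mammary markers (7.09). These traits cannot be told apart, and their part in its Ptgs2 value was not tested. Without wild type 3 the Ptgs2 difference was −3.41 (limma adjusted p = 0.0378, with 0.0157 to 0.816 over all alternatives). With the Gapdh difference as a covariate, the Ptgs2 difference was −2.85 over all 6 arrays (limma adjusted p = 0.0960). As the covariate was 0.07 to 1.46 on the other arrays, it mostly marks wild type 3. This fit therefore cannot separate RNA integrity from other traits of that array. The other Ptgs2 probe set showed the same split, with 4.62 and 4.53 in wild types 1 and 2 and 2.70 to 3.03 on the other 4 arrays.

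Ptges encodes the inducible, membrane-bound prostaglandin E synthase that acts together with Ptgs2. It measured 8.49, 8.39 and 7.30 in wild types 1 to 3. In knockouts 1 and 2 it measured 5.54 and 5.57, and in knockout 3 it measured 7.81, above wild type 3. The groups overlapped through that pair. Means were 8.06 ± 0.66 and 6.31 ± 1.31 (SD, n = 3 each), 3.38-fold lower in knockout (−1.75, SE 0.65, limma adjusted p = 0.361). Within the high-number series the difference was −2.89, and within the low-number pair it was 0.51 the other way. Without knockout 3 it was −2.51 (limma adjusted p = 0.0216, with 0.0114 to 0.812 over all alternatives). All 3 Ptges probe sets were lower in knockout (−1.75, −1.15 and −1.08 log2). On the probe set that differed by −1.15 the groups did not overlap, with 6.91 to 7.42 in wild type and 5.47, 5.82 and 6.79 across knockouts 1 to 3.

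**Figure D2:**
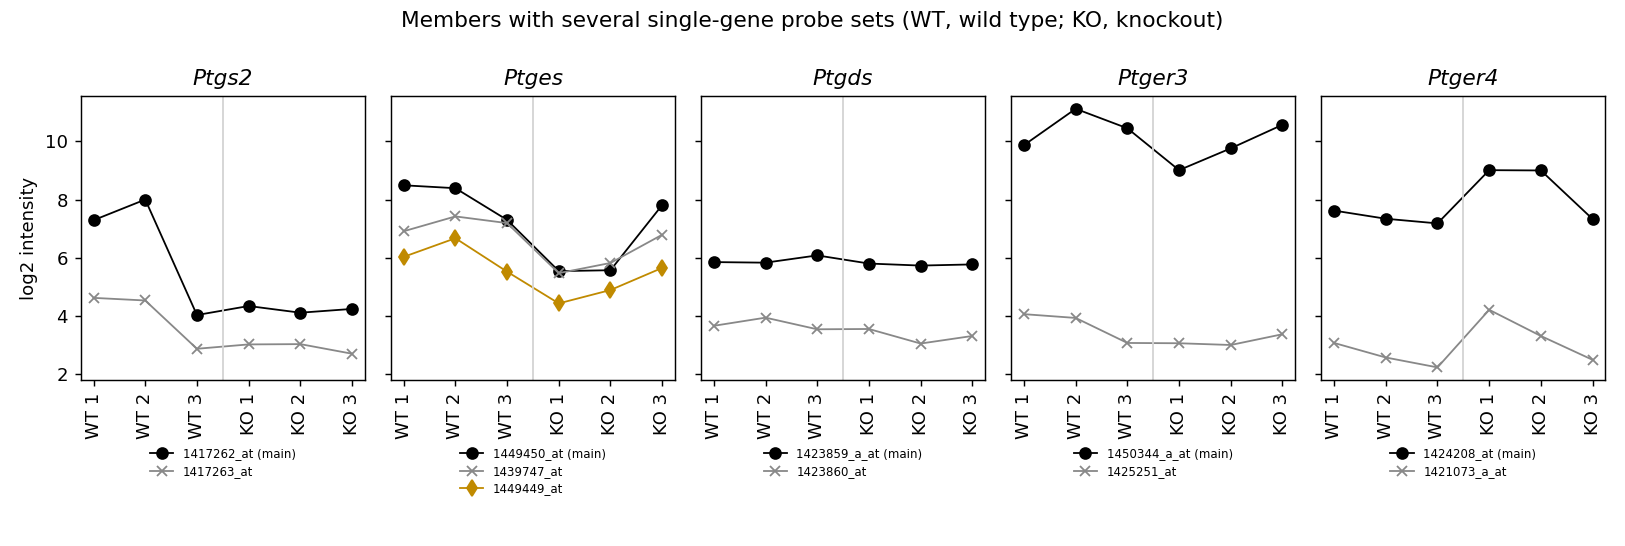
Log2 intensity (vertical axis) on each array (horizontal axis) for every single-gene probe set of the 5 members that have several. Lines join the values of 1 probe set and imply no order of the mice, and levels are to be compared between arrays of 1 probe set, not between probe sets. The 3 Ptges probe sets are lowest in knockouts 1 and 2, and both Ptgs2 probe sets are high in wild types 1 and 2 alone.

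The 2 prostaglandin D synthases differed in their values. Hpgds encodes the haematopoietic form, known from mast cells, macrophages and some T cells. It measured 3.39, 3.93 and 4.23 in wild types 1 to 3, 6.47 and 6.85 in knockouts 1 and 2, and 4.07 in knockout 3, which lay inside the wild-type range. The means were 3.85 ± 0.43 and 5.80 ± 1.51 (SD, n = 3 each), 3.85-fold higher in knockout (1.95, SE 0.70, limma adjusted p = 0.342). The difference was 3.00 in the high-number series and −0.16 in the low-number pair. Without knockout 3 it was 2.81 (limma adjusted p = 0.00754, with 0.00754 to 0.794 over all alternatives). The mean of Hpgds over all arrays, 4.82, lies below the median gene mean of 5.96.

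Ptgds encodes the lipocalin-type D synthase. It measured 5.85, 5.83 and 6.08 across wild types 1 to 3 and 5.80, 5.73 and 5.77 across knockouts 1 to 3. The groups did not overlap, but the gap between the nearest values was smaller than the spread among wild types. The difference was −0.15 (SE 0.15, limma adjusted p = 0.765). With arrays centred on their median gene or quantile normalized again the groups overlapped. Its other probe set was also lower in knockout (−0.41, SE 0.19), with overlapping groups.

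Tbxas1 encodes thromboxane synthase, known from platelets and macrophages. It measured 6.35, 6.97 and 7.26 in wild types 1 to 3, 8.30 and 8.69 in knockouts 1 and 2, and 6.93 in knockout 3. Here too knockout 3 lay inside the wild-type range and the other knockouts above it. Means were 6.86 ± 0.46 and 7.97 ± 0.93 (SD, n = 3 each), 2.16-fold higher in knockout (1.11, SE 0.47, limma adjusted p = 0.414). The difference was 1.83 and −0.34 within the 2 series. Without knockout 3 it was 1.63 (limma adjusted p = 0.0414, with 0.0414 to 0.864 over all alternatives).

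By the mean log2 level of each list, macrophage, mast cell and neutrophil markers were highest on the same 2 knockout arrays as Hpgds and Tbxas1. Single markers departed from this. Cd163 (−0.58), Kit (−0.42), Tpsab1 (−0.12) and Elane (−0.40) were lower in knockout. C1qa was highest in knockout 3 (10.79) and S100a9 in wild type 2 (7.65). Of 10 macrophage markers 9 were higher in knockout, and their summed linear intensity ran from 9930 to 10300 in wild type and from 11900 to 26800 in knockout. Their mean log2 level lay 1.47 and 1.39 above the wild-type mean in knockouts 1 and 2 and 0.32 above it in knockout 3. Adgre1, which encodes a surface receptor of mouse macrophages, measured 8.16 to 8.79 in wild type, 10.57 and 10.71 in knockouts 1 and 2, and 8.75 in knockout 3. Of 9 mast cell markers 7 were higher, with summed intensities of 497 to 969 in wild type and 553 to 1450 in knockout. Fcer1a, the alpha chain of the IgE receptor, measured 4.37 to 5.10 in wild type and 6.30, 6.64 and 4.25 across knockouts 1 to 3. Of 4 neutrophil markers measured 3 were higher, with a mean level 0.89, 1.00 and 0.58 above that of wild type across knockouts 1 to 3 and sums of 223 to 528 in wild type and 692 to 1810 in knockout. S100a8, a calcium-binding protein gene of neutrophils, measured 7.17 to 8.07 in wild type and 10.28, 10.61 and 8.88 across knockouts 1 to 3. The sums of macrophage and neutrophil markers did not overlap between genotypes, whereas those of mast cell markers did. Under an unadjusted limma p of 0.05 lay 6 of 10 macrophage, 2 of 9 mast cell and 2 of 4 neutrophil markers, all higher. For platelets and megakaryocytes it was 0 of 7, against 12.1% of all genes (6.71% higher). Of 7 platelet and megakaryocyte markers 4 were higher, with sums of 1110 to 1830 in wild type and 1750 to 2550 in knockout. Those sums mostly follow Pf4, which read 9.74 to 11.17, whereas no other marker of that list read above 6.46. S100a8 was likewise the brightest neutrophil marker on every array and leads the neutrophil sums. No marker of these lists read 0 on any array. In whole tissue, more cells of a type and more RNA per cell cannot be told apart, and the part of these cells in the values was not tested.

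Ptgis encodes prostacyclin synthase, known from vessel walls and stromal cells. It measured 8.34, 8.88 and 9.40 across wild types 1 to 3 and 8.09, 9.09 and 9.74 across knockouts 1 to 3, so the genotypes overlapped throughout (0.10, SE 0.45, limma adjusted p = 0.968). The sign turned with single arrays, to −0.29 without knockout 3 and −0.17 without wild type 1. The highest value of each genotype was that of the low-number pair. Several marker lists were highest on the same arrays by their mean log2 level. The smooth muscle and pericyte list read 9.14 in wild type 3 and 9.41 in knockout 3 against 7.76 to 8.64 elsewhere, and the mesothelial list read 7.74 and 8.61 against 6.53 to 6.97. The adipocyte list read 12.27 and 12.59 against 11.61 to 12.13, and the fibroblast and progenitor list 10.67 and 10.57 against 9.83 to 10.44. The endothelial list did not follow, at 7.18 and 7.48 there, and its highest level was that of wild type 2. Replicate 3 was the highest array of both genotypes for 6 of 7 mesothelial markers, 4 of 7 adipocyte markers, 3 of 7 fibroblast and progenitor markers, 2 of 6 smooth muscle markers (Acta2 and Tagln) and 1 of 6 endothelial markers. In the same order of lists, 6, 2, 2, 3 and 4 markers were higher in knockout. Summed intensities in wild type and knockout were 999 to 1740 and 774 to 3410 for mesothelial markers, 35700 to 45200 and 31000 to 49300 for adipocytes, 3130 to 6310 and 3590 to 8000 for smooth muscle, 15600 to 20400 and 18200 to 21800 for fibroblasts and progenitors, and 1020 to 1280 and 866 to 1430 for endothelium. No marker of these lists read 0, and their part in the Ptgis values was not tested.

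**Figure D3:**
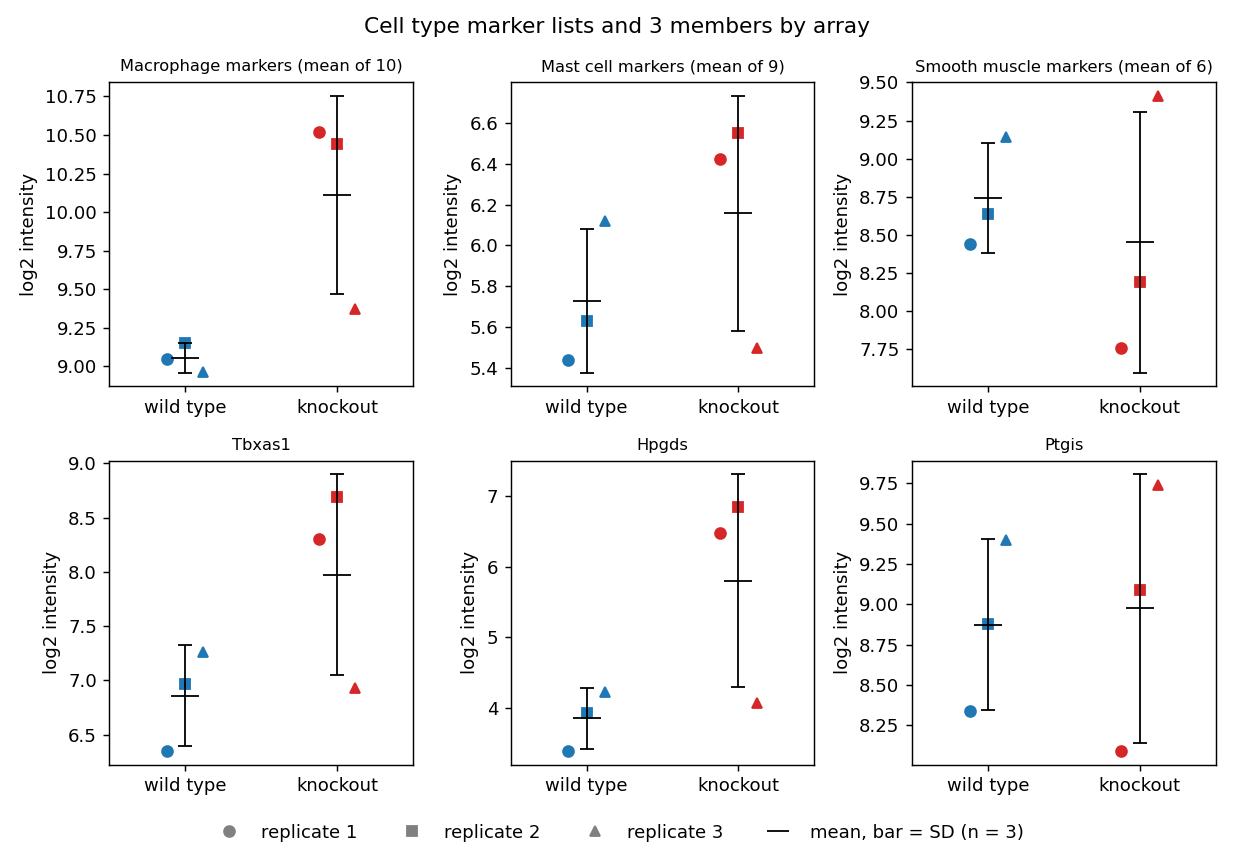
Top row, mean log2 intensity of the macrophage, mast cell and smooth muscle marker lists on each array; bottom row, log2 intensity of Tbxas1, Hpgds and Ptgis (vertical axes, each with its own range). Points are single mice with the mean and SD (n = 3). Knockouts 1 and 2 are the 2 highest arrays for Tbxas1, Hpgds and the macrophage and mast cell lists, and replicate 3 is the highest of each genotype for Ptgis and the smooth muscle list.

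Of the E receptors, Ptger4 and Ptger2, which signal through cyclic AMP, measured higher in knockout. Ptger4 read 7.62, 7.34 and 7.18 across wild types 1 to 3 and 9.01, 9.00 and 7.33 across knockouts 1 to 3. Knockouts 1 and 2 lay above every wild type, and knockout 3 lay among them. Means were 7.38 ± 0.22 and 8.45 ± 0.97 (SD, n = 3 each), a 2.09-fold difference (1.07, SE 0.45, limma adjusted p = 0.413). Without knockout 3 it was 1.62 (limma adjusted p = 0.0113, with 0.0113 to 0.862 over all alternatives), and it was 1.52 and 0.15 within the 2 series. The other Ptger4 probe set, dim at 2.23 to 4.21, was higher by 0.71 (SE 0.44).

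Ptger2 measured 5.35, 6.06 and 5.68 across wild types 1 to 3 and 6.69, 7.80 and 6.03 across knockouts 1 to 3. The lowest knockout lay just below the highest wild type, and the other knockouts lay above the wild-type range. Means were 5.70 ± 0.36 and 6.84 ± 0.89 (SD, n = 3 each), 2.20-fold apart (1.14, SE 0.44, limma adjusted p = 0.375). The difference was 1.53 in the high-number series and 0.35 in the low-number pair. It did not pass limma under any alternative run (adjusted p 0.0904 to 0.781).

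Ptger3 encodes the EP3 receptor. It measured 9.87, 11.12 and 10.45 across wild types 1 to 3 and 9.01, 9.76 and 10.57 across knockouts 1 to 3. Knockouts 1 and 2 lay below all wild types, and knockout 3 lay above wild types 1 and 3. Means were 10.48 ± 0.62 and 9.78 ± 0.78 (SD, n = 3 each), a 1.62-fold lower level (−0.70, SE 0.45, limma adjusted p = 0.623). It was −1.11 and 0.11 within the 2 series. Its other probe set was dim, at 3.00 to 4.06, and lower (−0.55, SE 0.28). Adipocyte markers, of which 5 of 7 measured were lower in knockout, had summed intensities of 35700 to 45200 in wild type and 31000 to 49300 in knockout. The lowest of those sums was in knockout 1 and the highest in knockout 3, and none of the markers read 0. Their part in the Ptger3 values was not tested.

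**Figure D4:**
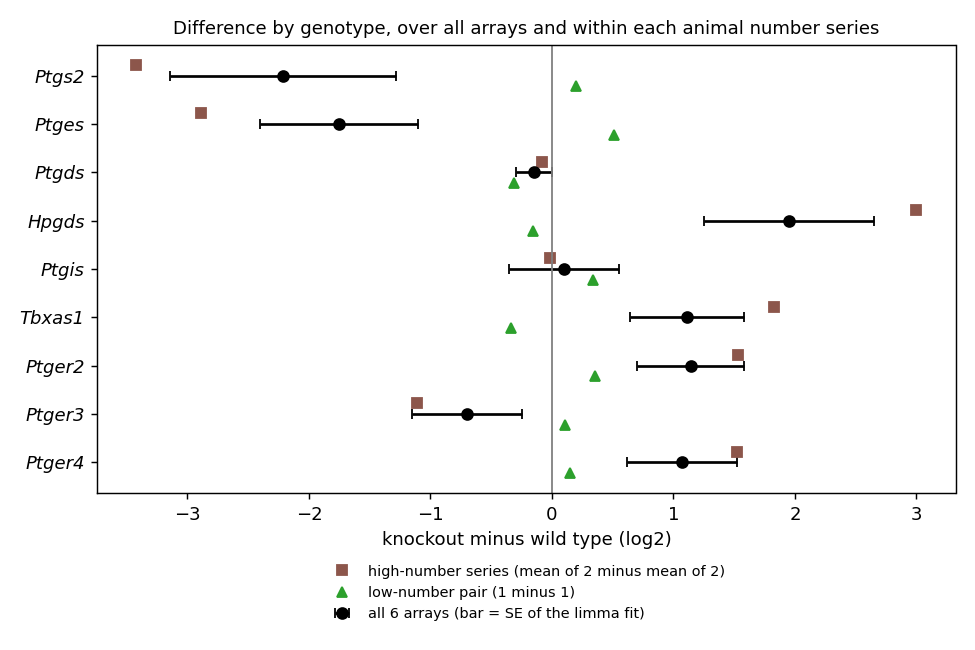
Difference of knockout minus wild type (log2, horizontal axis) for the 9 measured members. Black points are the limma estimate over all 6 arrays with its SE, squares the difference within the high-number series (2 against 2), and triangles that within the low-number pair (1 against 1). The squares lie farther from 0 than the black points for Ptgs2, Ptges, Hpgds, Tbxas1, Ptger2, Ptger3 and Ptger4, and the triangles lie between −0.34 and 0.51.

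The genes with the most similar pattern were sought for the 3 members with the largest differences among those above the median gene mean. Likeness was the root mean square distance between log2 profiles over the 6 arrays, each centred on its own mean. The search covered only genes at or above the median gene mean whose symbol is not that of a clone or predicted gene. Nearest to Ptges were Thrsp, a lipogenic gene of fat and liver (distance 0.23), the mitochondrial glycerol phosphate dehydrogenase Gpd2 (0.26) and Slc2a4, the insulin-responsive glucose transporter (0.32). Thrsp measured 13.02, 12.94 and 12.30 across wild types 1 to 3 and 9.88, 10.44 and 12.35 across knockouts 1 to 3, so it too was low in knockouts 1 and 2 alone. Nearest to Ptger2 were the ceramidase gene Acer3 (0.10), Ltbp2 (0.14), which encodes a matrix protein, and the phosphatase gene Inpp5d of blood cells (0.16). Nearest to Tbxas1 were Evi2a, the lectin receptor gene Clec4a3 and Trim47, each at 0.12.

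The other genes of the pathway came from 5 lists of 40 genes, of which 36 were measured. None passed limma at an adjusted p under 0.05, and 6 of 36 lay under an unadjusted p of 0.05, 5 higher and 1 lower, against 12.1% of all genes (6.71% higher and 5.38% lower). The groups did not overlap in 7 of 36, 5 higher and 2 lower, against 16.3% of all genes. The median difference was 0.09, against −0.04 over all genes. The 29 genes that met neither criterion, 15 of them higher and 14 lower, differed by −0.74 to 0.69.

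Among 9 genes of arachidonate release, 5 were higher and 4 lower in knockout. Pla2g5, a secreted phospholipase A2, measured 3.38, 3.72 and 4.08 across wild types 1 to 3 and 5.66, 5.82 and 6.30 across knockouts 1 to 3. All knockouts, knockout 3 included, lay above all wild types by more than the spread within either group. Means were 3.73 ± 0.35 and 5.93 ± 0.33 (SD, n = 3 each), 4.60-fold higher in knockout (2.20, SE 0.25, limma adjusted p = 0.0947). The difference was 2.19 in the high-number series and 2.22 in the low-number pair. The adjusted p ran from 0.0112 to 0.548 over all alternatives. Pla2g2e, another secreted phospholipase, measured 3.82, 5.65 and 5.30 across wild types 1 to 3 and 5.84, 6.48 and 6.26 across knockouts 1 to 3 (1.27, SE 0.47, limma adjusted p = 0.358). Its groups lay close to each other, and both genes average below the median gene mean.

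Of 4 other prostanoid synthases 3 were lower (−0.68 to −0.59), with overlapping groups. The 7 genes listed as other prostanoid receptors, 3 higher and 4 lower, also had overlapping groups. Of the higher ones, Ptgfrn (0.48) encodes a regulator of the prostaglandin F receptor and not a receptor. Among 6 genes of prostaglandin transport and breakdown, 5 were higher. Ptgr1, a reductase that inactivates prostaglandins and leukotriene B4, measured 7.22, 8.39 and 8.47 across wild types 1 to 3 and 9.79, 9.95 and 8.73 across knockouts 1 to 3 (1.46, SE 0.44, limma adjusted p = 0.287). Its lowest knockout, knockout 3, lay just above the highest wild type.

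In the lipoxygenase and epoxygenase branch 6 of 10 genes were higher. Alox5ap, the protein that presents arachidonic acid to 5-lipoxygenase, measured 8.62, 8.91 and 9.00 across wild types 1 to 3 and 10.58, 10.55 and 9.20 across knockouts 1 to 3 (1.26, SE 0.38, limma adjusted p = 0.287). It was 1.72 without knockout 3 (limma adjusted p = 0.00879, with 0.00879 to 0.761 over all alternatives). The macrophage, mast cell, neutrophil and platelet marker lists also had their highest mean levels in knockouts 1 and 2. Across arrays the platelet list spanned only 5.69 to 5.92. The part of these cells in the Alox5ap values was not tested. Alox15, the 12/15-lipoxygenase gene, was higher by 1.14 (SE 0.39, limma adjusted p = 0.325), from 5.17 to 6.11 in wild type and 6.19 to 7.51 in knockout. Ephx2, the soluble epoxide hydrolase gene, measured 10.05, 10.99 and 10.87 across wild types 1 to 3 and 8.81, 9.61 and 9.98 across knockouts 1 to 3 (−1.17, SE 0.37, limma adjusted p = 0.302). Its groups met at wild type 1 and knockout 3 without overlapping. Alox12 was lower (−0.29, SE 0.15, limma adjusted p = 0.518).

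**Figure D5:**
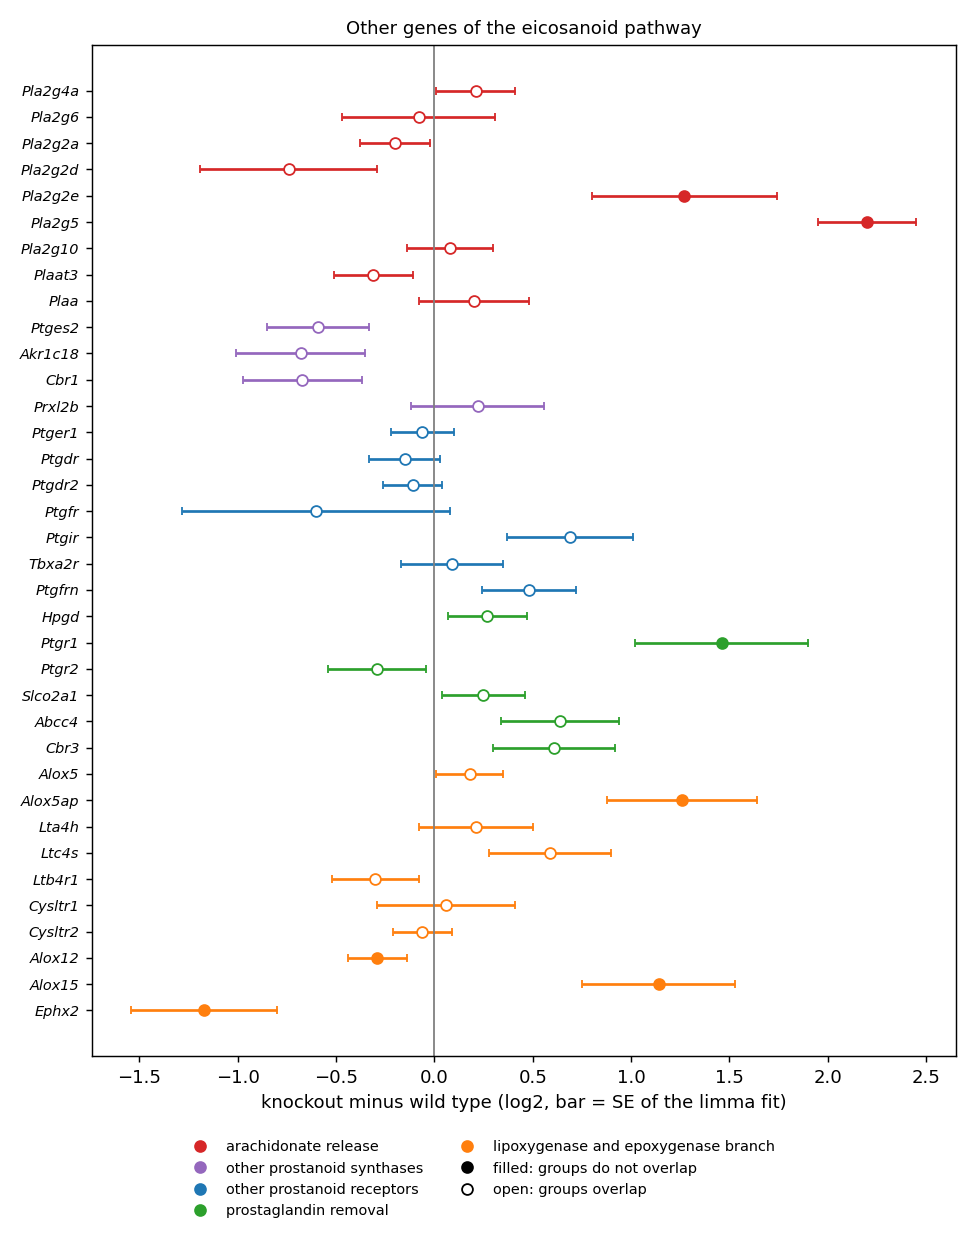
Difference of knockout minus wild type (log2, horizontal axis) with the SE of the limma fit for 36 other genes of the eicosanoid pathway, coloured by list. Filled points mark the 7 genes whose genotype groups did not overlap; Pla2g5, at 2.20, lies farthest from 0.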

How the data were processed

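The authors deposited 1 table of RMA intensity values for 45101 probe sets, with RMA named in the submitters' processing notes and no version given. The deposited intensities are on a linear scale, as the values show, with medians of 22.4 to 24.2 per array. The plan written beforehand allowed for log2 values, so log2 was taken first, with no pseudocount. RMA is meant to bring all arrays to a common distribution. In the values used, the median of the main probe sets still ran from 5.77 in wild type 1 to 6.07 in wild type 3 (log2). The number of arrays limits the precision.

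Of the probe sets, 64 were controls, 34945 had 1 gene symbol, 932 several and 9160 none listed. Symbols were updated by gene identifier to RefSeq names of GRCm38.p6 (34741 matched). The 18193 genes were fitted together with limma 3.58.1 in R 4.3.3 (two-sided, eBayes, no trend; 3.06 prior degrees of freedom). P-values were adjusted by Benjamini-Hochberg over every gene, with no filter on dim ones. Replicates were numbered in accession order and pair no arrays. Tested on simulated data of 18193 genes, the fit recovered 23% of 2-fold and 68% of 4-fold changes with 1 false call. The simulated noise was independent between genes and equally wide on all arrays. It lacks the differences between single arrays seen here, so these rates need not hold for the real data.

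The members, gene lists and alternatives were chosen with earlier results of these data known. Every member was named. Other pathway genes were named where groups did not overlap or the unadjusted p was under 0.05, and 3 genes of most similar pattern for each of 3 members. Members were compared by their own probe sets, never between genes.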

Additional observations from a re-analysis of the deposited data

How the results depend on the processing

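Over all genes limma called 1, and with other settings 12 (genes at or above the median mean), 12 (quantile normalization repeated), 16 (arrays centred on the median gene), 10 (eBayes with trend and robust), 6 (Gapdh covariate) and 487 (high-number series alone). It called 0 when every probe set was fitted, with log2 of the value plus 16, and with a block for the animal number series (3645, 2071 and 2361 at an unadjusted p under 0.05). Leaving out single arrays gave 0 (without wild type 1 or 2 or knockout 1 or 2, with 1169 to 2243 at an unadjusted p under 0.05) to 816 (without knockout 3). Members called numbered 5 in the high-number series alone (Hpgds, Ptger4, Ptges, Ptgs2 and Tbxas1, where 2.68% of genes were called) and 0 to 4 with 1 array left out. The 4 were Hpgds, Ptger4, Ptges and Tbxas1 without knockout 3 (4.49% of genes called), and without wild type 3 it was Ptgs2 (0.0495%). Members whose groups did not overlap numbered 0 with the filter, which removes Ptgds, and 0 with either renewed normalization. They numbered 2 with every probe set (15.0% of probe sets), 8 in the high-number series (41.4% of genes) and 1 to 7 with 1 array left out (21.0% to 31.8%). Fewer arrays make a lack of overlap more frequent. Members under an unadjusted limma p of 0.05 numbered 0 with log2 of the value plus 16 and without wild type 1, knockout 1 or knockout 2. With the other alternatives they numbered 1 to 6, against 5 in the main fit. Over all genes, or probe sets where each was fitted, 1169 to 3645 lay under that limit. Of other pathway genes 1, Pla2g5, was called with quantile normalization, with centring, or with trend, 2 (Pla2g5 and Alox5ap) in the high-number series, and 0 to 2 with 1 array left out. Within the low-number pair, which allows no test or count, the sign turned for Ptgs2 (0.20), Ptges (0.51), Hpgds (−0.16), Tbxas1 (−0.34) and Ptger3 (0.11). That of Ptgis turned within the high-number series (−0.02) and without wild type 1 (−0.17) or knockout 3 (−0.29), within a range of −0.29 to 0.54 over single arrays left out. Leaving that pair aside, 128 of 141 differences of the 9 members under alternatives kept direction and call. Apart from the filter and the smaller numbers of arrays, the cause was not tested. No paired analysis was possible because the labels give no replicate numbers.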
